A study of Mus musculus with 36 samples.

Results

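Replication timing (RT) was compared between 2 mouse B cell populations at sequence that replicates early in the CH12 lymphoma line and later in primary B cells. The regions were chosen from the domain maps themselves. They are the autosomal 20 kb bins in the early (E) state in CH12 cells expressing shLacZ and in the middle (M) or late (L) state in primary B cells. They numbered 2685 bins, or 53.7 Mb, of the 29295 autosomal bins that were E in CH12, a share of 9.17% (Wilson 95% interval 8.84 to 9.50% over bins). That share is the background for counts of member bins, and gene counts have backgrounds of their own, given beside them. On the 19 autosomes, 120754 bins had a state in each of the B cell maps. Since both B cell states chose these bins, those states are given as a description and support nothing.

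Repli-seq labels newly made DNA with BrdU, sorts cells into early and late S phase, and sequences the labelled DNA of each fraction. The series held 36 libraries in 7 groups, and the B cell maps rest on 8 of them. The CH12 map came from 4 libraries, 2 replicates of each fraction, of CH12 cells infected with a lentivirus expressing an shRNA against LacZ, which served as the infection control. CH12 is a clonal line, and the labels give its medium as RPMI with IL4, CD40 and TGF beta stimulation. The labels repeat this CH12 medium for the primary B samples. The primary B map came from 4 libraries of activated splenic B cells labelled WT, from mice that the study describes as Rif1+/+, of an age not given in the sources used here. In both groups BrdU was given for 2 h and *Rif1* was intact. The study also deposited a map under the name of mouse embryonic fibroblasts (MEFs), and no sample label refers to it. It was not used to choose the bins. Replicates were merged before states were called, so each condition is 1 map, no value has a replicate error and no test between conditions could be made. Intervals cover counting over bins, and neighbouring bins are not independent. Read depth is unknown from the maps. The files hold states without RT values, so how close a member bin lay to the limit between E and M cannot be given.

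Each stretch of the genome has a characteristic time of replication in S phase. Gene-rich, open chromatin tends to replicate early and gene-poor, compact chromatin late, and some domains change their time during differentiation. A stretch that is early in 1 cell type and middle in another can be a domain of its own, a domain whose border lies elsewhere, or a dip inside a longer early domain.

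Promoter sequence is shown for 4 runs of adjacent member bins, to let the base composition of gene starts inside them be read directly. For each run it is the 250 bases upstream of the protein-coding gene that starts nearest to its centre, read 5′ to 3′ on the strand of the gene from the NCBIM37 (mm9) genome. Unnamed gene models starting nearest to the centre of the longest and seventh longest runs are not shown. Of these, *Gm17350* has 1 CG and *Gm11145* has 0. Capitals mark CG dinucleotides. *Trmt5* encodes a tRNA methyltransferase (chr12:74387699-74387948, minus strand), and its sequence holds 26 CG. *Prrxl1*, a homeobox gene of sensory neurons, has 12 (chr14:33412344-33412593, plus strand). *Smarcal1*, whose product anneals DNA at stalled replication forks, has 9 (chr1:72629575-72629824, plus strand). *D1Pas1*, a DEAD-box helicase gene expressed in testis, has 11 (chr1:188791045-188791294, plus strand) and lies in the run with the most late bins.
Trmt5: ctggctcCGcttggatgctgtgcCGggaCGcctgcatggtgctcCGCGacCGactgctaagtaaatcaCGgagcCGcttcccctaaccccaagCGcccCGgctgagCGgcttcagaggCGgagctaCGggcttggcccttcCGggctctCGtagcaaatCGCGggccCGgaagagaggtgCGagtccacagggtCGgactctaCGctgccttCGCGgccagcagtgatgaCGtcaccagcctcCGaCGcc
Prrxl1: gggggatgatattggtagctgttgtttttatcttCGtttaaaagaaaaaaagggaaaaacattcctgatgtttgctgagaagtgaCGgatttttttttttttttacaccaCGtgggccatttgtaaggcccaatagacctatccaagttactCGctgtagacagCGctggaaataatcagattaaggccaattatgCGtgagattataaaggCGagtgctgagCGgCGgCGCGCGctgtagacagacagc
Smarcal1: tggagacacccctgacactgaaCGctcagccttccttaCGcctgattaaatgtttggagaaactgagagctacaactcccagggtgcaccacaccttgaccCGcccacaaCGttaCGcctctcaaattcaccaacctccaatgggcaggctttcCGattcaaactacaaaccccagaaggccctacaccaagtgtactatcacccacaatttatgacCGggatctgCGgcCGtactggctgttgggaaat
D1Pas1: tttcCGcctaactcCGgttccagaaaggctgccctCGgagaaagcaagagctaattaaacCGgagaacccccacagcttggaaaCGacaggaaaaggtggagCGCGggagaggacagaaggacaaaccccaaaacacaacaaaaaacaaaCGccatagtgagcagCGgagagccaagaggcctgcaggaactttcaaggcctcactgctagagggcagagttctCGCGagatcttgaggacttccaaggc

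A further 3 runs hold variable (V) gene segments of the immunoglobulin kappa light chain, and the V gene nearest to the centre of each is shown. These 3 were chosen after their values were seen. V gene promoters are known to carry an octamer bound by Oct transcription factors, ATGCAAAT or its reverse complement ATTTGCAT, which is in capitals here. The sequences are from *Igkv16-104* (chr6:68375349-68375598, plus strand), *Igkv4-80* (chr6:68967075-68967324, minus strand) and *Igkv5-48* (chr6:69677120-69677369, minus strand). All 3 hold the octamer as ATTTGCAT, and none holds a CG dinucleotide.
Igkv16-104: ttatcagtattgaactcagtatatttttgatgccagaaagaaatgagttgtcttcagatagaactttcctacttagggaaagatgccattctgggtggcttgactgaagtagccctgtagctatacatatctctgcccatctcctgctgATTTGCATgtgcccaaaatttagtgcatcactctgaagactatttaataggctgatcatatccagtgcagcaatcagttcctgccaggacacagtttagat
Igkv4-80: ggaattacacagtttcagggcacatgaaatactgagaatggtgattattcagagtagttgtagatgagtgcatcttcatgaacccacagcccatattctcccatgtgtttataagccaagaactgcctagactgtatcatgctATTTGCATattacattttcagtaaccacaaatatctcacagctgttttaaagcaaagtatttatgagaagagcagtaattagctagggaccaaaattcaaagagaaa
Igkv5-48: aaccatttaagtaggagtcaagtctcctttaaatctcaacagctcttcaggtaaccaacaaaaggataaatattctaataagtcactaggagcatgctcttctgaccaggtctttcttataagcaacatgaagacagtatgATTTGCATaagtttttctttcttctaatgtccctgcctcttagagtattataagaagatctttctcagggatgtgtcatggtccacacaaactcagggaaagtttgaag

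The member bins were nearly all M in primary B cells. There, 2662 bins were M and 23, or 0.857%, were L. Merging adjacent bins gave 300 runs with a median length of 100 kb (order-statistic 95% interval 80 to 140 kb, quartiles 40 and 260 kb, range 20 to 1260 kb). Of these runs, 236, or 78.7%, were shorter than 300 kb, the span over which the study smoothed RT, and 55 were a single bin. The 64 runs of at least 300 kb held 1517 bins, or 56.5% of all member bins. Runs lay in 244 of the 537 early domains that CH12 cells had on autosomes.

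Chromosomes differed in how much of their CH12 early sequence was later in primary B cells. The share was highest on chromosome 1, with 334 of 2027 bins or 16.5%, followed by 15.4% on chromosome 8, 14.9% on chromosome 13 and 14.1% on chromosome 6. It was lowest on chromosome 19, where 3 of 931 bins or 0.322% qualified, and next lowest on chromosome 16 with 3.71%. The median autosome had 8.16%. Of the 3 bins on chromosome 19, 1 was the last bin of the chromosome. The longest run there, 40 kb at chr19:54120001-54160000, overlapped *Adra2a*, an adrenergic receptor gene. Without chromosome 1 the share over the remaining autosomes was 8.62%. Single runs weigh on these shares. On chromosome 8, 1 run held 63 of the 203 member bins. On chromosome 6, the 3 runs with kappa V genes held 64 of 238.

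**Figure D1:**
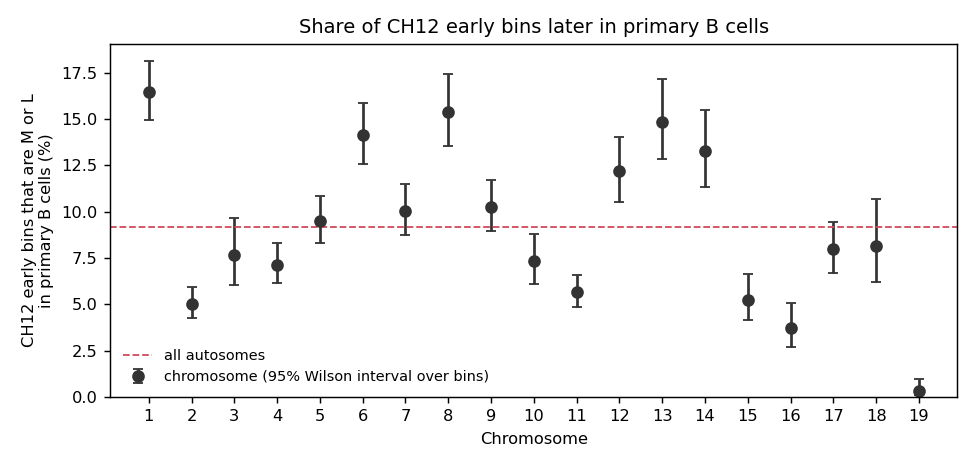
Share of CH12 early 20 kb bins that are M or L in primary B cells (y axis, percent) for each of the 19 autosomes (x axis), with Wilson 95% intervals over bins. The dashed line is the share over all autosomes, 9.17%. Chromosomes 1, 8, 13, 6, 14 and 12 lie above it with their intervals, and chromosome 19 is lowest at 0.322%. Bins of a run are not independent, so these intervals are too narrow.

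The runs took different places in the CH12 early domains. Edge runs, with a domain border on 1 side and a bin early in both B cell maps on the other, numbered 221 with a median of 60 kb and held 1342 bins, or 50.0%. Whole-domain runs were complete CH12 early domains, with a border on both sides, that were later in primary B cells. They numbered 48 with a median of 280 kb and held 850 bins, or 31.7%. Interior runs, with bins early in both maps on each side, numbered 28 with a median of 290 kb and held 458 bins, or 17.1%. The other 3 runs, each at a chromosome end, held 35 bins. Among them, those at chr7:151960001-152524553 and chr13:120200001-120284312 also filled their CH12 early domain. Few runs were thus whole domains, 16.0% of runs, yet 6 of the 10 longest were.

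**Figure D2:**
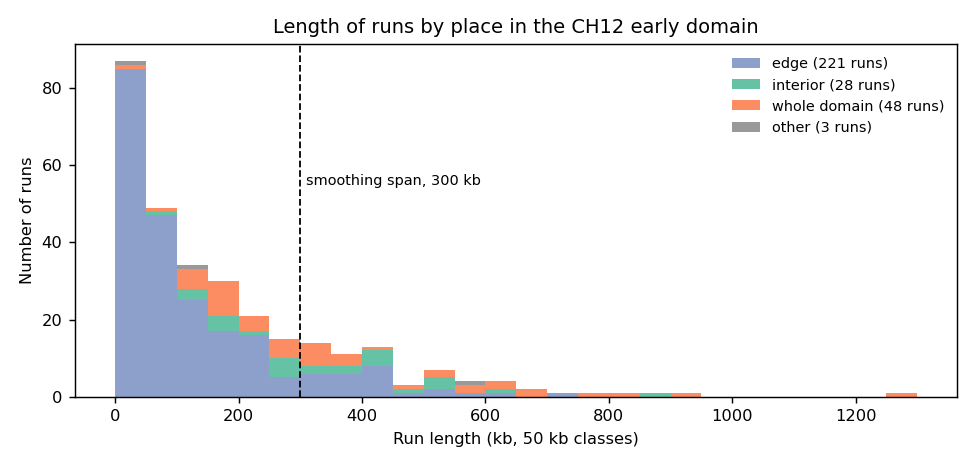
Number of runs (y axis) by length (x axis, kb, in classes of 50 kb), stacked by place in the CH12 early domain. The dashed line is the smoothing span of 300 kb. Edge runs make up most of the bars below 100 kb, and the longest run, 1260 kb, is a whole domain.

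The surroundings in the primary B map were read in the same way. Of the 300 runs, 146 lay in M stretches with an early domain on both sides, 127 in stretches between an early and a late domain, and 13 in stretches between late domains. The last 13 had a median run length of 300 kb, against 100 kb for each of the first groups. Member bins had a median distance of 120 kb to the edge of their CH12 domain. Bins early in both maps had a median distance of 380 kb. Bins of the reverse class, M in CH12 but E in primary B cells, had 140 kb. The reverse class was the larger, with 8446 bins against 2685 members, although it leaves out bins L in CH12. With chromosome X, the primary B map had 36885 E bins and the CH12 map 29985. The sizes of the classes therefore also depend on how many bins each map calls E. In all, 43.6% of member bins lay under 100 kb from that edge, against 15.2% of bins early in both and 37.4% of the reverse class. Leaving out bins that close to a CH12 border lowered the member share to 6.29%, and leaving out bins that close to a border of either B cell map lowered it to 4.18%.

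The longest run was a CH12 early domain of 1260 kb at chr8:130080001-131340000 with 63 bins, all M in primary B cells and all E in the map named for MEFs. It held the starts of *Nrp1*, which encodes neuropilin 1, a co-receptor for semaphorins and VEGF, and *Itgb1*, the integrin beta 1 chain, plus the end of the polarity gene *Pard3*. *Pard3* itself started outside, in a bin that was later in CH12 (M) than in primary B cells (E). Paralogues of these genes lay in the eighth and the ninth longest runs, on chromosome 1. *Nrp2*, which encodes neuropilin 2, started with *Ino80d*, *Ndufs1* and *Eef1b2* in a CH12 domain of 660 kb at chr1:62580001-63240000, again E in the map named for MEFs in all 33 bins. *Pard3b* is 1003 kb long, started in an edge run of 640 kb at chr1:61100001-61740000 and reached into the *Nrp2* run. In the map named for MEFs, 9 of the 32 bins of its run were E and 23 were M. That the paralogues fell in the same class was noticed after the values were seen, and whether it exceeds chance was not tested.

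The second longest run was a CH12 domain of 900 kb at chr12:73860001-74760000 holding 11 protein-coding gene starts. They include *Mnat1*, an assembly factor of the CDK-activating kinase, the phosphatase gene *Ppm1a*, *Trmt5*, the transporter gene *Slc38a6*, *Tmem30b*, and *Prkch*, which encodes protein kinase C eta. In primary B cells it lay in an M stretch of 3480 kb between early domains, and 42 of its 45 bins were E in the map named for MEFs, with 3 M. The fifth, at chr2:52140001-52900000, was a CH12 domain of 760 kb in a primary B M stretch of 2460 kb between late domains. *Arl5a*, *Cacnb4*, a calcium channel subunit gene, and *Stam2* lay inside it, and *Neb*, which encodes the muscle protein nebulin, and *Fmnl2*, a formin gene, started there. In the map named for MEFs 35 of 38 bins were E.

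The fourth longest run, a CH12 domain of 800 kb at chr1:72260001-73060000, was M in 37 bins and L in 3 in primary B cells. It contained 9 protein-coding genes. *Xrcc5* encodes the Ku80 subunit that binds broken DNA ends, *Smarcal1* acts at stalled forks, *Pecr* encodes a peroxisomal enzyme, *Rpl37a* a ribosomal protein, and *Igfbp2* and *Igfbp5* proteins that bind insulin-like growth factors. *March4*, *Tmem169* and *Ankar* are the others. The map named for MEFs split it into 14 E bins, where *Pecr*, *Tmem169* and *Xrcc5* started, and 26 M bins, where the other 6 started. *March4* crossed the change, with 4 of its 7 bins E.

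The third, the sixth and the tenth longest runs were parts of longer CH12 early domains. An interior run of 880 kb at chr14:33000001-33880000, inside a CH12 domain of 3560 kb, filled an M stretch of the same 880 kb in primary B cells. It held the starts of *Timm23*, a mitochondrial import gene, *Parg*, which removes poly(ADP-ribose), *Ogdhl*, *Chat*, which makes acetylcholine, *Ercc6*, a gene of transcription-coupled repair, *Prrxl1*, *Fam170b*, *Lrrc18* and 4 gene models with Rik names, and overlapped *Wdfy4*. An edge run of 700 kb at chr7:146380001-147080000 held *Stk32c*, *Lrrc27*, *Pwwp2b*, *Inpp5a*, an inositol phosphatase gene, the homeobox gene *Nkx6-2*, *Gpr123* and 3 other gene models. An interior run of 640 kb at chr11:108380001-109020000 held *Axin2*, a negative regulator of Wnt signalling, and overlapped *Ccdc46*. These 3 runs were E in 17 of 44, 25 of 35 and 3 of 32 bins in the map named for MEFs, and M in the remainder. The 10 longest runs were thus not alike in that map, from wholly E to wholly L.

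**Figure D3:**
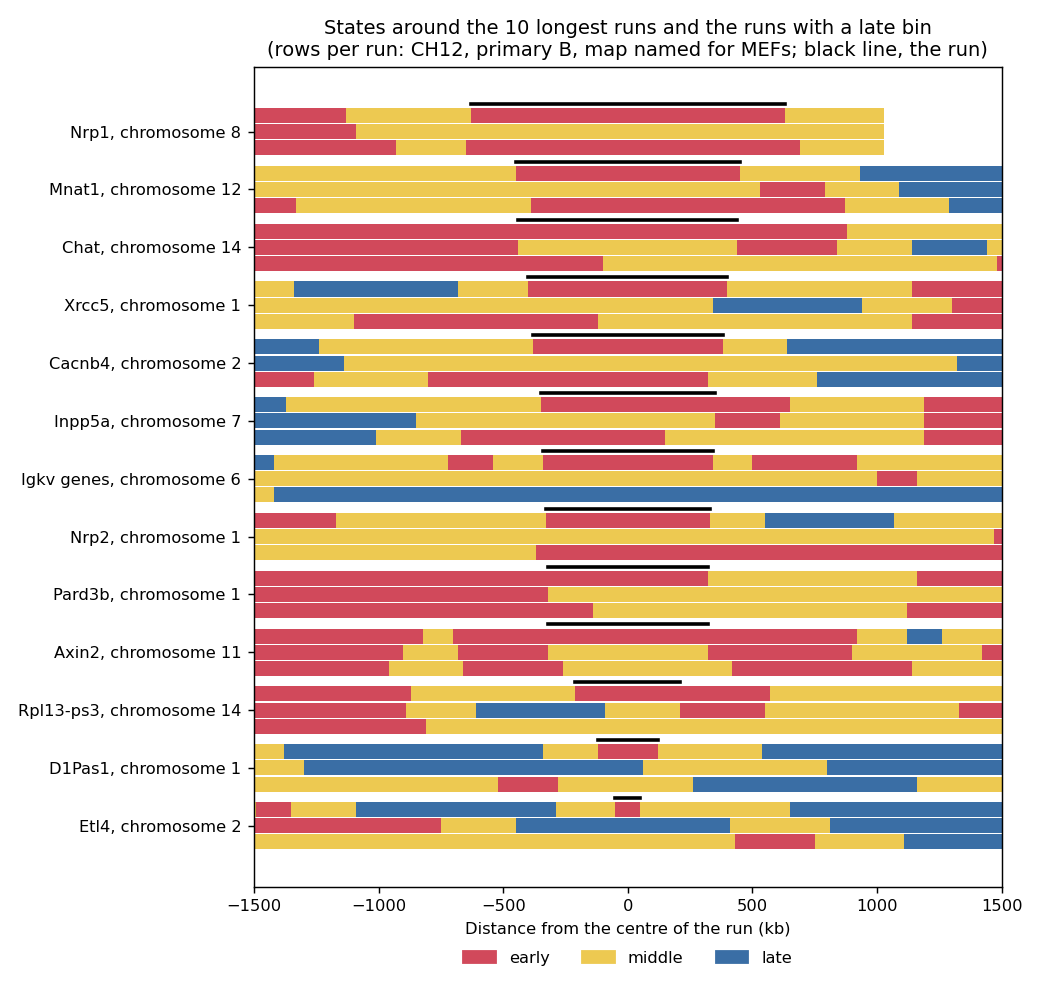
States of the CH12, primary B and MEF-named maps (3 rows per run, E red, M yellow, L blue) within 1500 kb of the centre of the 10 longest runs and of the runs with a late primary B bin (x axis, kb from the run centre). The black line marks the run. The *Nrp1*, *Mnat1*, *Cacnb4* and *Nrp2* runs are red islands in CH12 inside yellow primary B stretches, while the *Chat* and *Axin2* runs are gaps in a primary B early region.

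The seventh longest run lay in the kappa V gene cluster, which assembles light chain genes in B cells by joining a V to a J segment. Of 100 *Igkv* genes on chromosome 6, 38 started in CH12 early bins, and all 38 were members. Among genes of all types starting in CH12 early bins, 834 of 16270 (5.13%) were members. Genes in 1 run share its states, so the 38 are not independent. These 38 genes lay in 3 complete CH12 early domains of 180 kb (chr6:68240001-68420000, 3 genes), 680 kb (chr6:68620001-69300000, 21 genes) and 420 kb (chr6:69460001-69880000, 14 genes). Both gaps between these domains were M in CH12. In primary B cells all 3 fell in a single M domain of 2780 kb, and in the map named for MEFs in a single L domain of 2960 kb, so all 38 genes were L there. Of the other 62 *Igkv* genes, 55 were M in both B cell maps. A further 6 went from M in CH12 to E in primary B cells, and 1 from L to M. The J segments *Igkj1* to *Igkj5* and the constant gene *Igkc* also went from M in CH12 to E in primary B cells, so they were not members. V genes are similar to each other, and the study kept only reads that aligned to a single place. How much sequence each bin lost by this is unknown from the maps, and its part in these states was not tested.

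**Figure D4:**
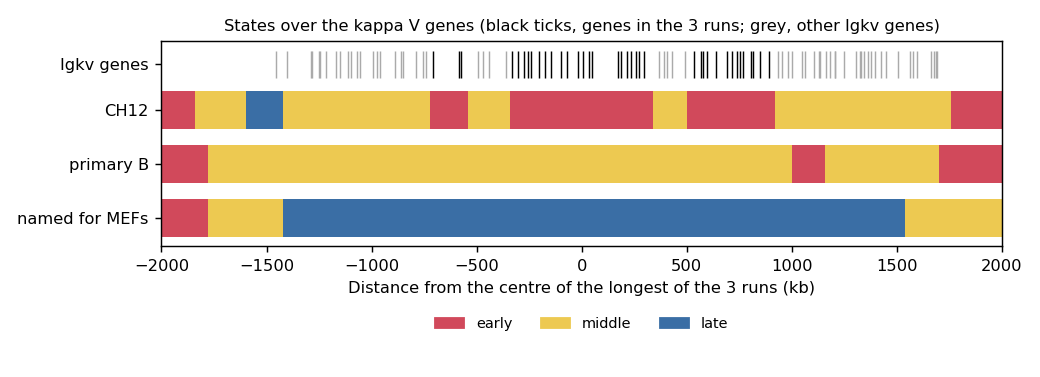
States of the 3 maps within 2000 kb of the centre of the longest kappa run (x axis, kb), with the start of each *Igkv* gene as a tick. Black ticks are the 38 genes in the 3 runs and grey ticks the other 62. The 3 CH12 early domains sit inside a middle domain of primary B cells and a late domain of the map named for MEFs.

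The octamer was searched on both strands of the 250 bases upstream of each gene, as ATGCAAAT or ATTTGCAT, and no other motif was searched. It was found at 30 of the 38 member *Igkv* genes (78.9%), always as ATTTGCAT on the strand of the gene, and began 89 to 132 bases before the annotated start with a median of 107. At the other *Igkv* genes it was found in 30 of 62 (48.4%). The exact octamer differed between V gene families. No gene with an *Igkv6* or *Igkv8* name held it, and none of these was a member. Many member genes have *Igkv4* names and lie side by side, so they are not independent. Whether membership adds anything to family was not tested. Among protein-coding genes it was found in 9 of 492 starting in member bins (1.83%, *Igkv4-69* among them) and in 349 of 21418 on all autosomes (1.63%). These are matches of letters and not sites shown to be bound. CG dinucleotides were absent upstream of 23 of the 38 member *Igkv* genes (60.5%) and of 34 of the other 62 (54.8%).

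Late bins occurred in 4 runs. The run at chr1:188640001-188880000 was a CH12 domain of 240 kb, L in 9 and M in 3 bins in primary B cells, with *D1Pas1* in it. The run at chr14:59360001-59780000 was an edge run of 420 kb with 6 L and 15 M bins, where *Rpl13-ps3* and 1 gene model with a Rik name started. The run at chr2:20360001-20460000 was a CH12 domain of 100 kb within *Etl4*, L in all 5 bins. The last is the run of *Xrcc5* with 3 L bins. The first 3 of these runs were M in every bin in the map named for MEFs, in 12, 21 and 5 bins.

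The map named for MEFs gave the members a state that had not been used to choose them. It was E in 58.5% of member bins (Wilson 95% interval 56.6 to 60.3%), M in 37.1% and L in 4.47%. Bins early in both B cell maps were E in 87.8% (87.4 to 88.2%), M in 12.0% and L in 0.154%. Bins of the reverse class were E in 59.0% (58.0 to 60.1%), M in 38.9% and L in 2.05%. All autosomal bins were E in 33.6%. The share of E bins was lower in members than in bins early in both on 18 of 19 autosomes. The exception was chromosome 16 with 97.4% against 79.6%. Autosomes count alike here, although chromosome 16 had 38 member bins and chromosome 19, among the 18, had 3. The share of E bins was lower in members than in bins of the reverse class on 9 of 19. Pooled over all distances from a CH12 border, the intervals of members and the reverse class overlap.

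The distance to the CH12 border moved with this share, so it was compared within 3 classes of distance. Members were E in 51.3% of bins under 100 kb from a CH12 border, 62.1% from 100 to 300 kb and 66.6% at 300 kb or more. Bins early in both were E in 69.9%, 82.1% and 95.1%, above the members in each class. The distance is to the edge of a bin's own CH12 domain. For bins early in CH12 the state beyond it is M, and for the reverse class it is E or L. The same distance thus means different surroundings. Bins of the reverse class were E in 59.0%, 56.4% and 63.0%. They lay above members under 100 kb (intervals 57.3 to 60.7% and 48.4 to 54.1%) and below them from 100 to 300 kb (54.6 to 58.1% and 58.8 to 65.3%). These intervals count neighbouring bins as independent and are therefore too narrow. Whether members and the reverse class differ beyond the spread between runs was not tested. By place in the domain, interior runs were E in 65.9% of bins, edge runs in 58.3% and whole-domain runs in 53.2%. L bins made up 12.2% of whole-domain runs (104 of 850), 5.09% of them without the 3 kappa runs (40 of 786), and 1.19% of edge runs. Over runs, 158 of 300 were E throughout, 92 had no E bin and 7 were L throughout.

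**Figure D5:**
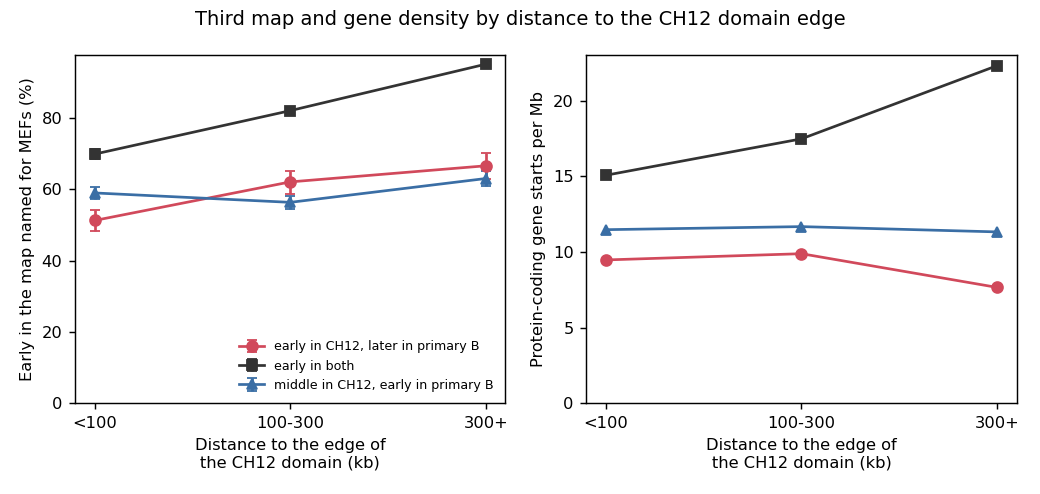
Left, share of bins that are E in the map named for MEFs (y axis, percent, with Wilson 95% intervals over bins). Right, protein-coding gene starts per Mb (y axis). Both are plotted by distance to the edge of the CH12 domain (x axis, kb) for member bins, bins early in both B cell maps and bins of the reverse class. Members lie below bins early in both at each distance in both panels.

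The 120 member bins that were L in the map named for MEFs lay in 10 runs, and 64 of them were the kappa bins. Without the 3 kappa runs, 2.14% of member bins were L and 59.9% were E. The other 4 runs that were L throughout measured 100 to 320 kb. A CH12 domain of 320 kb at chr10:50700001-51020000 overlapped *Sim1*, a transcription factor gene of the hypothalamus. An edge run of 200 kb at chr1:87340001-87540000 held *Sp110* and *Sp140*, which encode nuclear body proteins. An edge run of 100 kb at chr7:95160001-95260000 lay within *Grm5*, a glutamate receptor gene, and a CH12 domain of 140 kb at chr4:6980001-7120000 overlapped no protein-coding gene. The run at chr1:84700001-85320000 was M in 15 bins and L in 16, with *Trip12*, *Fbxo36* and *Slc16a14* in the M bins.

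Members held fewer gene starts than other CH12 early sequence. Of 11091 protein-coding genes that started in CH12 early bins, 492, or 4.44%, started in member bins, which made up 9.17% of that sequence. Over genes of all types the count was 834 of 16270, or 5.13%. The density was 9.16 starts per Mb in members, 19.9 in bins early in both, 11.5 in the reverse class and 8.87 over all autosomal bins. By distance to the CH12 border it was 9.47, 9.88 and 7.66 per Mb in members and 15.1, 17.5 and 22.3 in bins early in both, from the nearest class to the farthest. Edge runs had 10.1 starts per Mb, whole-domain runs 8.41 and interior runs 7.21. Of the 300 runs, 133 held no protein-coding start and 61 overlapped no protein-coding gene. Of the genes annotated as V genes, 38 started in CH12 early bins and 36 of these (94.7%) were members, all of them *Igkv* genes. The other 2 member *Igkv* genes, *Igkv4-71* and *Igkv4-69*, are annotated as protein-coding and count among the 492.

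Base composition was read from the genome sequence. Member bins had a median GC content of 44.3% (order-statistic 95% interval 44.0 to 44.4%, quartiles 41.7 and 47.1%). Bins early in both had 45.8%, the reverse class 43.4% and all autosomal bins 41.4%. The 3 kappa runs were poorer in GC, with means of 38.7%, 37.8% and 37.6%. The ratio of observed to expected CpG had a median of 0.194 in members, 0.216 in bins early in both and 0.201 in the reverse class. Promoters with at least 10 CG in the 250 bases upstream made up 51.6% of the 492 in members and 58.3% of those early in both. They made up 52.6% in the reverse class and 47.6% over all autosomes. The *Trmt5*, *Prrxl1* and *D1Pas1* sequences above reach 10 CG, with 26, 12 and 11, while *Smarcal1* has 9.

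Most genes in CH12 early bins were not members, and the same held for genes on lists for B cells, other cell types and replication. Across 10 lists with 184 autosomal genes found in the annotation, 122 started in CH12 early bins and 2 of these, or 1.64%, in member bins, against 4.44% of all protein-coding genes. The lists of B lineage transcription factors (17 genes in CH12 early bins), B cell receptor signalling and surface genes (16), activation and class switching (16), B-1 cell genes (10), origin licensing and firing (14), T and NK cell genes (12), myeloid genes (12) and fibroblast genes (4) had 0 members each. Lists with 4 to 17 such genes are too short to tell 0 members from a share of 4.44%. *Creb3l2*, a transcription factor gene of the secretory pathway, was the only member among the 9 genes of the plasma cell list that started in CH12 early bins. It starts in a CH12 domain of 280 kb at chr6:37200001-37480000, M in all 14 bins in primary B cells and E in all 14 in the map named for MEFs. *Ccnd1*, which encodes cyclin D1, was the only member among 13 such genes on the list of leukaemia and lymphoma oncogenes. It starts near the distal end of chromosome 7 in a run of 29 bins at chr7:151960001-152524553, with *Fgf3*, *Fgf4*, *Fgf15*, *Oraov1*, *Tpcn2*, *Mrgprf* and *Mrgprd*, all M in primary B cells and E in the map named for MEFs.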

How the data were processed

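The members, gene lists and measures were chosen with earlier results of these data known. Per the labels and the study's methods, the authors trimmed reads with Trim Galore 0.6.5, aligned them to mm9 with BWA 0.7.17, kept unique alignments with SAMtools 1.9, merged replicates and removed duplicates. They then computed log2 E/L in 20 kb bins with deepTools, smoothed it by loess over 300 kb and segmented it into 3 states with hmm_bigwigs. The deposited maps hold the start, end and state number of each domain, and no counts or RT values. An M bin can lie on either side of RT 0, and the limits between states can differ between maps. Merging removes the replicate spread, and smoothing blurs borders.

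Domains were placed on 20 kb bins of NCBIM37, whose chromosome lengths matched the last domain end on 20 of 20 chromosomes in each map. State numbers were read as E, M and L in the order 2, 1, 0 in the B cell maps and 0, 2, 1 in the map named for MEFs. In each map E and L domains touched in 0 places, and E had the highest density of gene starts. Genes came from GENCODE M1 and were placed by their start. Runs were named when they had an L bin in primary B cells, were among the 10 longest, or were the longest on the autosome with the highest or lowest member share. Their protein-coding genes were named, with list genes in member bins. Other named runs were chosen after their values were seen. The promoters of *Gm17350* and *Gm11145*, nearest to the centre of the first and seventh runs, were not shown as unnamed gene models. RefSeq promoters were not used, being of another build. Shares have Wilson 95% intervals. The distances of 100 and 300 kb to a CH12 border and the CpG ratio were added after seeing the data. As a check of the code only, 200 runs were planted in longer CH12 early domains away from chromosome ends. All 200 came back with their length and class. Shorter domains and those at chromosome ends were not tried. Tools were Python 3.11.15 with pandas 2.3.3, numpy 2.4.6, matplotlib 3.10.9 and scipy 1.17.1. The other 5 groups were not used here. Some items that these rules name are not reported here.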

Additional observations from a re-analysis of the deposited data

How the results depend on the processing

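Alternatives gave 42 values for 11 results, of which 23 stayed inside the 95% interval of the main value or, for counts, differed by under 1.5 times. Leaving out bins of unknown bases or the first 3 Mb changed no member bin, and joining runs across up to 40 kb joined none. Searching up to 40 kb for a bin early in both maps changed no run class. The values from these settings are among the 23 and, having had nothing to change, say nothing about robustness. Adding chromosome X gave 2766 bins. Without bins nearer than 100 kb to a CH12 border there were 1513 member bins, 6.29% of CH12 early bins, with a median GC of 44.6%. Leaving out those near a border of either B cell map gave 942 bins and 4.18%. Without chromosome 1 the share was 8.62%. Runs of at least 100 kb numbered 164 with a median of 240 kb, 54.3% of them edge, 16.5% interior and 28.0% whole-domain runs. Runs of at least 300 kb numbered 64 with a median of 410 kb. Leaving out bins near a border of the map named for MEFs gave 61.3% E in that map. Members' share of gene starts was 5.13% of all gene types (834 genes), 4.92% of all types without V genes (798), and 5.63% of protein-coding genes placed by overlap. Chromosome 1 left out, V genes left out and kappa runs left out, also from whole-domain runs, were chosen after seeing the data. The planned share of repeats was not run, since the genome sequence used here marks no repeats. No paired analysis was possible because each condition is a single map of merged replicates, and no replicate could be left out. The maps give no read depth, so what depth limits could not be measured.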

Other observations

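Groups of 3 or more protein-coding genes with the same name stem that started in 1 run were listed after the values were seen, and no test was made of them. There were 11 such groups, of which 5 are given here. The 6 skeletal and related myosin heavy chain genes *Myh1*, *Myh2*, *Myh3*, *Myh4*, *Myh8* and *Myh13* started in an edge run of 400 kb at chr11:66780001-67180000, M in all 20 bins in primary B cells and M in 19 in the map named for MEFs. The 4 aldehyde oxidase genes *Aox1*, *Aox3*, *Aox4* and *Aox3l1* filled part of an edge run of 340 kb at chr1:58020001-58360000 that was E in all 17 bins in the map named for MEFs. The matrix metalloproteinase genes *Mmp12*, *Mmp1b*, *Mmp3* and *Mmp1a*, 4 of the 10 *Mmp* genes found within 500 kb, lay in an edge run of 180 kb at chr9:7320001-7500000 that was M in all 9 bins there. The complement genes *C1qa*, *C1qb* and *C1qc* lay in an interior run of 260 kb at chr4:136360001-136620000, and *Cd200r1* to *Cd200r4* in an edge run of 240 kb at chr16:44720001-44960000, both E throughout in the map named for MEFs.

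Beyond the 10 longest runs, 13 more reached 500 kb, and these examples were also chosen after their values were seen. The *Ccnd1* run, at the distal end of chromosome 7, also filled its CH12 early domain. Among the rest, 6 were whole-domain runs, with a border on both sides. They held *Runx2*, a transcription factor gene of bone (580 kb at chr17:44380001-44960000, E in 25 of 29 bins in the map named for MEFs), *Zfp703*, *Adrb3* and *Eif4ebp1* (560 kb at chr8:27860001-28420000, E in 28 of 28), *Bmpr1a*, a receptor gene for bone morphogenetic proteins (540 kb at chr14:35040001-35580000, E in 27 of 27), *Sox4*, a transcription factor gene (520 kb at chr13:29000001-29520000, E in 21 of 26), and *Ptpn4*, *Sctr* and *Dbi* (620 kb at chr1:121660001-122280000, E in 20 of 31). The sixth, with *Trip12*, was E in 0 of 31 bins there.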
